A study of Mus musculus with 13 samples.

Results

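The genes described here encode ribosomal proteins of the large subunit of the cytosolic ribosome. They are 45 named Rpl and Rplp genes, taken by symbol from a table of 22656 genes, and all 45 were found. Genes were tested where their mean reached 10 normalised counts. That filter kept 12403 genes of the table and 44 of the 45 members, all but Rpl24.

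The RNA came from mouse melanoma cells recovered from lung metastases, grown in hosts that were APOE2 or APOE3 knock-in animals. Every library came from the same cell line, B16F10-TR-shApoe, a derivative of the B16F10 melanoma line with a short hairpin directed at Apoe, so the genotype compared is that of the host and the hairpin is present in both groups. Mice received the cells through the tail vein, the lungs were collected on day 15 and digested with collagenase, and TO-PRO-3 low, CD45- and GFP+ cells were sorted. The APOE2 group had 8 libraries and the APOE3 group 5, the numbers of mice that the study's design text gives. The age and sex of the mice are not given in the sources used here. Since 1 tumour line was used, the spread between libraries is that between injected hosts and preparations, not between independent tumours.

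The large ribosomal subunit joins amino acids in a catalytic centre built of ribosomal RNA, and its proteins hold that RNA in shape, form the mobile stalks that handle translation factors and transfer RNA, line the tunnel through which the new chain leaves and form contacts with the small subunit. The genes are expressed in every growing cell and are made in near-equal amounts as proteins. Their messenger RNAs usually begin with a cytosine followed by a run of pyrimidines, the terminal oligopyrimidine tract, through which their translation and stability respond to mTOR signalling and the RNA-binding protein LARP1.

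That tract is shown first, because it is the sequence feature the family is known for, and for the members that the comparison turns on. RefSeq (GRCm38.p6) gave a start for 34 of the 45 members, at 40 start sites. Each window below begins 10 bases before the annotated start and ends 20 bases from it, on the gene's own strand and read 5′ to 3′. Capitals mark an annotated first base C with the unbroken run of C and T that follows it, where that run is at least 4 bases. The windows lie at chr2:39005112-39005141 on the minus strand for Rpl35, chr16:33056472-33056501 on the plus strand for Rpl35a (1 of its annotated starts), chr11:114668570-114668599 on the plus strand for Rpl38, chr14:18270967-18270996 on the minus strand for Rpl15, chr7:141447641-141447670 on the plus strand for Rplp2, chr7:4792955-4792984 on the plus strand for Rpl28 and chr9:120571507-120571536 on the plus strand for Rpl14. The windows of Rpl6, at chr5:121204491-121204520, of Rpl7a, at chr2:26910797-26910826, and of both annotated starts of Rpl10a, at chr17:28328461-28328490 and chr17:28328555-28328584, all on the plus strand, are printed beside them because the groups did not overlap for these genes.
Rpl35: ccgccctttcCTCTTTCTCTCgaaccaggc
Rpl35a: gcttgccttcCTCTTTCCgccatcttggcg
Rpl38: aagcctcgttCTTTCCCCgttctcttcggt
Rpl15: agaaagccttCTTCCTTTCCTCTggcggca
Rplp2: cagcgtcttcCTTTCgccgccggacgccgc
Rpl28: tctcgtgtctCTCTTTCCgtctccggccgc
Rpl14: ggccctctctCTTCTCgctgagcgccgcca
Rpl6: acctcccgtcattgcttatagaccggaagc
Rpl7a: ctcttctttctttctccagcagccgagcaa
Rpl10a, upstream start: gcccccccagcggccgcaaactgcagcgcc
Rpl10a, downstream start: atttgagcgcatgcgcaaagcgctctgcct

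A tract of this kind began at an annotated start in 7 of the 34 members (20.6%), the 7 printed with capitals, and in 813 of all 27025 genes of the promoter table (3.01%). In the Rpl7a window a pyrimidine run spans the annotated start without meeting this rule, so the absence of capitals says only that no such run begins with a C at that base. The log2 fold changes of the 7 members ran from -0.07 (Rpl14) to 0.96 (Rpl35), around a median of 0.49. The 26 tested members without the tract ran from -0.16 to 0.73 around a median of 0.29, so both ranges overlapped widely. Further motifs were searched on both strands of the window from 250 bases before to 50 after the start. CTCTTT occurred in 17 of 34 members (50%) and in 25.6% of all genes. CCGGAAGT, a motif of the ETS family of factors, occurred in 7 (20.6%) and in 4.31% of all genes, and GCCATCTT, a motif of the factor YY1, occurred in 3 (8.82%) and in 3.19%. Medians of the log2 fold change were 0.29 with and 0.32 without CTCTTT, and 0.23 with and 0.32 without CCGGAAGT. CTCTTT can overlap a start tract, as it does in Rpl35, Rpl35a and Rpl28.

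Sequencing depth was recovered from the deposited values and ran from 7080308 to 13039989 reads per library, of which 252884 to 656488 fell on the members. The melanocyte marker list (10 genes, all tested) made up 41954 to 57325 per 1000000 normalised counts in the APOE2 libraries and 34058 to 44704 in the APOE3 libraries, which fits the labelled melanoma, and none of its genes passed the threshold. APOE3 replicates 2 and 3 stood apart from the other libraries in the share of counts on Gm42418, a locus whose reads resemble ribosomal RNA, at 3.74% and 3.03% against 0.66% to 2.17% in the other 11 libraries. Malat1, an abundant nuclear RNA, rose in APOE2 (0.79 ± 0.18, SE, adjusted p = 0.0367, limma), with 0.35% to 0.73% of the normalised counts against 0.20% to 0.31%, and the groups did not overlap. Mitochondrially encoded RNA took 4.22% to 5.04% in APOE2 and 5.27%, 5.71%, 6.29%, 5.64% and 4.30% in APOE3 replicates 1 to 5. The part of these RNAs in the results below was not tested, apart from the fit with Gm42418. Fold changes of the members named are given below with and without APOE3 replicates 2 and 3.

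Most large subunit genes had somewhat higher values in cells from APOE2 hosts, and few differed beyond the spread between libraries. Rpl35, Rpl35a and Rpl6 rose in APOE2 (limma, Benjamini-Hochberg adjusted p under 0.05 over all 12403 genes), and no member fell. Over all tested genes, 0.411% were called higher and 0.379% lower by the same rule, 0.79% in either direction. The log2 fold change, APOE2 minus APOE3 on the log2(value + 1) scale, was above 0 for 39 of the 44 tested members, against 50.1% of all tested genes, and the median over the members was 0.27 with quartiles of 0.07 and 0.49, against 0.00037 over all genes. That background depends on level. Where the mean reached 1000 normalised counts (1674 tested genes), 58.2% were above 0, the median was 0.05 and 1.79% were called higher. At an unadjusted p under 0.05, 22 members were higher and 0 lower, against 7.51% and 6.71% of all tested genes and 17.9% higher among those with a mean of at least 1000. The groups did not overlap for Rpl6, Rpl7a and Rpl10a, all 3 higher in APOE2, where 0.476% of all tested genes separated in that direction and 0.508% in the other. In these bulk libraries, fewer cells of a type and less RNA per cell cannot be told apart, and the members were chosen with earlier results of these data known, so their shared direction is a description without a test.

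**Figure D1:**
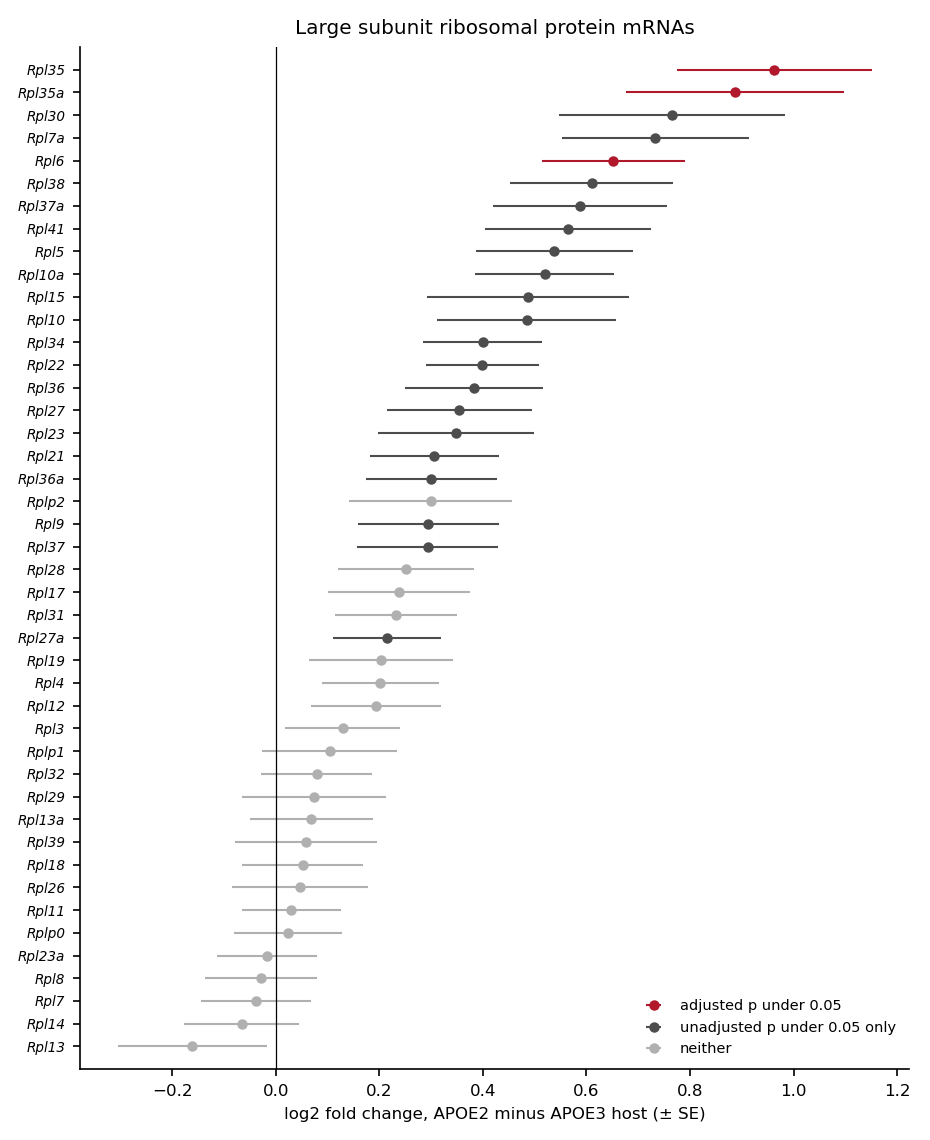
Log2 fold change (APOE2 minus APOE3) of the 44 tested large subunit genes on the horizontal axis, ordered by size from top to bottom, with bars of 1 standard error on each side; red points have an adjusted p under 0.05, dark grey points an unadjusted p under 0.05 only, and light grey points neither. Rpl35 (0.96), Rpl35a (0.89) and Rpl6 (0.65) are red, and 5 members lie below 0, the lowest being Rpl13 at -0.16.

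**Figure D2:**
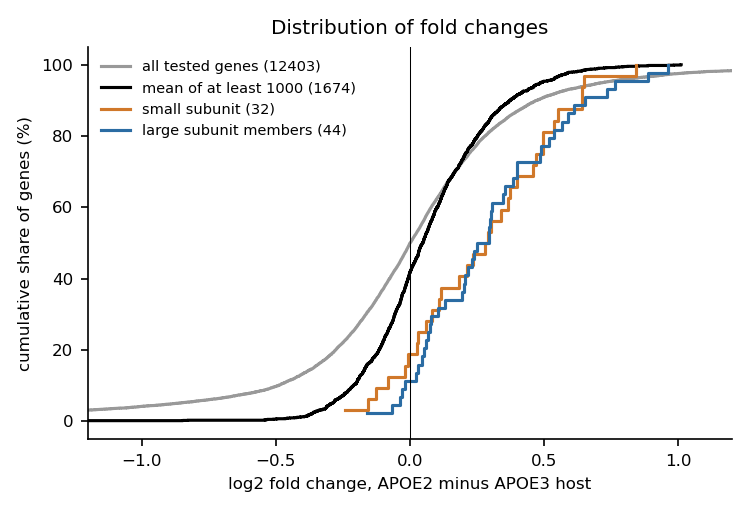
Cumulative share of genes (vertical axis, %) by log2 fold change (APOE2 minus APOE3, horizontal axis) for all 12403 tested genes, the 1674 whose mean reached 1000 normalised counts, the 32 small subunit genes and the 44 tested members; values beyond 1.2 below or above 0 are outside the plot. The member and small subunit curves lie close together to the right of the others, with medians of 0.27 and 0.29 against 0.05 for genes of high mean.

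The 3 calls depended on single libraries. The number of members called higher was 0 without APOE3 replicate 3 and without APOE3 replicate 4. It was 1 without APOE2 replicate 1, 2 or 5, and 9 without APOE3 replicate 1, and 2 to 4 in the remaining fits. Calls over all tested genes moved too. With all libraries 51 were higher, against 5 without APOE3 replicate 3, 21 without APOE3 replicate 4 and 131 without APOE3 replicate 1. Without APOE2 replicates 1, 2 and 5 in turn, 22, 11 and 18 were higher. With APOE3 replicates 2 and 3 both left out, 0 members and 1 of all 12380 tested genes were called. In that fit 11 members were higher at an unadjusted p under 0.05, 34 of 44 were above 0 and the median was 0.16. Of the 39 members above 0 with all libraries, 24 then had a value lower by more than 1.5 times, 7 of them at or below 0, and 3 had a value higher by more than 1.5 times. With APOE2 replicates 1 and 2 both left out, 0 members were called, and 7 of all 12422 tested genes were called higher. Of the members, 36 were then above 0 and their median was 0.18. On recovered reads, edgeR's quasi-likelihood test called 2 members higher and DESeq2 called 8, and neither called any lower. Over all genes, edgeR called 61 of 12403 higher and 77 lower, and DESeq2 called 152 of 14641 higher and 162 lower.

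Rpl35 encodes a protein next to the mouth of the exit tunnel, where factors that act on new chains dock. It had the largest difference of the family. The gene (ENSMUSG00000062997) lies at chr2:39001580-39005624 on the minus strand (GRCm38), and the start of its transcript is printed above. Its normalised counts in the APOE2 libraries were 7047, 6947, 6303, 3743, 6313, 3578, 5236 and 5205 for replicates 1 to 8, with a median of 5770. In the APOE3 libraries they were 4258, 1847, 2928, 2028 and 3451 for replicates 1 to 5. Of the 8 APOE2 libraries, 6 lay above the highest APOE3 library, and APOE2 replicates 4 and 6 lay inside the APOE3 range. The means were 5546 ± 1348 (SD, n = 8) and 2903 ± 1002 (SD, n = 5), a log2 fold change of 0.96 ± 0.19 (SE), or 1.95-fold, with adjusted p = 0.0191 (limma). It was called in 11 of the 13 fits with 1 library left out. The adjusted p was 0.0582 without APOE3 replicate 3 and 0.0646 without APOE3 replicate 4, and with APOE3 replicates 2 and 3 both left out the log2 fold change was 0.80 (adjusted p = 0.1002, limma). Arpc5l, on the opposite strand with a mean of 1472 normalised counts, overlaps its exons. The library kit keeps the strand, but whether counting used it is not given in the sources used here, so reads of the pair may be mixed.

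Rpl35a encodes a protein of the outer shell that is needed for maturation of the large subunit, and loss of a copy of its gene is a known cause of Diamond-Blackfan anaemia. The gene (ENSMUSG00000060636) lies at chr16:33056453-33060189 on the plus strand. Its normalised counts were 6345, 6825, 7224, 4896, 6899, 4033, 5757 and 5981 in APOE2 replicates 1 to 8, with a median of 6163. They were 5332, 1498, 3461, 2568 and 4651 in APOE3 replicates 1 to 5. The groups overlapped, since APOE2 replicates 4 and 6 lay below APOE3 replicate 1, and APOE3 replicate 2 was the lowest library by a wide margin. The means were 5995 ± 1086 (SD, n = 8) and 3502 ± 1546 (SD, n = 5), a log2 fold change of 0.89 ± 0.21 (SE) with adjusted p = 0.0421 (limma). This call was kept only without APOE2 replicate 6, APOE3 replicate 1 or APOE3 replicate 5. With any of the other 10 libraries left out (APOE2 replicates 1, 2, 3, 4, 5, 7 and 8, and APOE3 replicates 2, 3 and 4) the adjusted p lay between 0.0517 and 0.118 (limma), and without APOE3 replicate 2 the log2 fold change was 0.61 (adjusted p = 0.0749, limma). With APOE3 replicates 2 and 3 both left out it was 0.56 (adjusted p = 0.197, limma).

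Rpl6 encodes a large subunit protein with an extension that lies on the outer surface. The gene (ENSMUSG00000029614) lies at chr5:121204481-121209241 on the plus strand. Its normalised counts were 1304, 1586, 1008, 872, 1021, 831, 928 and 972 in APOE2 replicates 1 to 8, with a median of 990.2. They were 704, 624, 675, 665 and 649 in APOE3 replicates 1 to 5. All APOE2 libraries lay above all APOE3 libraries, and the APOE3 values were close together, with a coefficient of variation of 4.49%, the smallest in that group among the members. The means were 1065 ± 254 (SD, n = 8) and 663 ± 29.8 (SD, n = 5), a log2 fold change of 0.65 ± 0.14 (SE) with adjusted p = 0.0283 (limma). It was called in 8 of the 13 fits with 1 library left out. The adjusted p was 0.0573 without APOE2 replicate 1, 0.0540 without APOE2 replicate 2, 0.0518 without APOE2 replicate 5, 0.0670 without APOE3 replicate 3 and 0.0646 without APOE3 replicate 4 (limma). With APOE3 replicates 2 and 3 both left out the log2 fold change was 0.63 (adjusted p = 0.1002, limma).

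**Figure D3:**
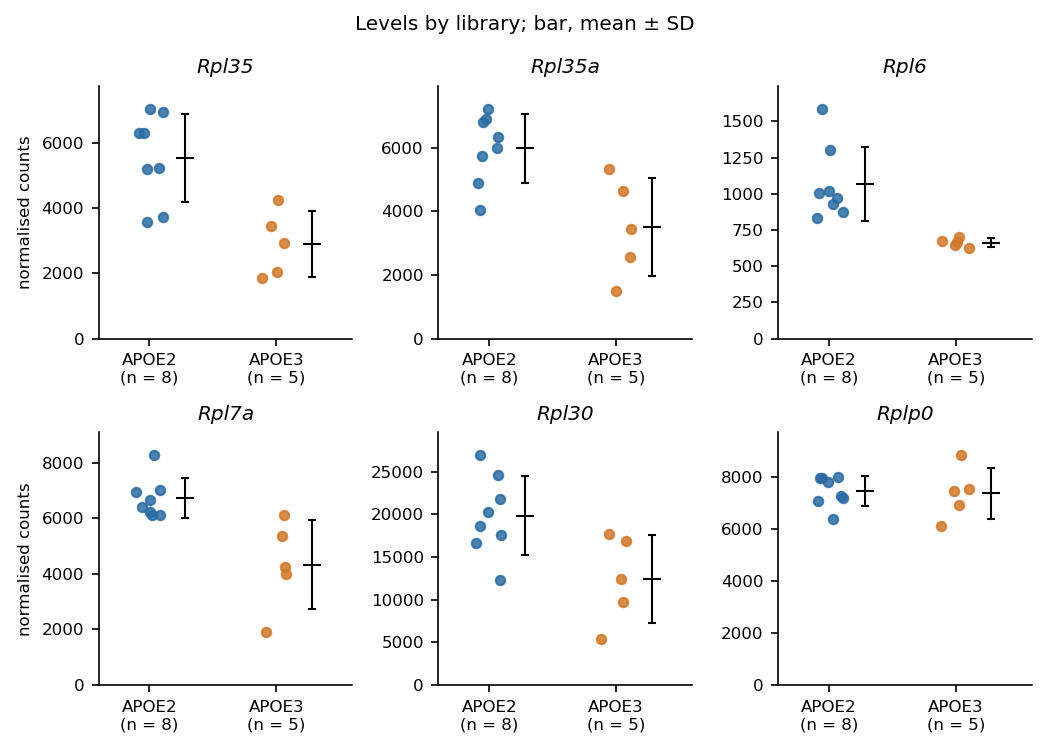
Normalised counts (vertical axes, each from 0 with its own scale) of Rpl35, Rpl35a, Rpl6, Rpl7a, Rpl30 and Rplp0 in each library (points, spread sideways only for visibility), with the group mean and 1 SD on each side beside them (n = 8 APOE2, n = 5 APOE3). The groups do not overlap for Rpl6 and Rpl7a, and for Rplp0 the APOE3 range encloses the APOE2 range.

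Rpl7a and Rpl10a separated by group without passing the threshold. Rpl7a, a shell protein whose gene hosts several small nucleolar RNAs, had 6113 to 8262 normalised counts in APOE2 (median 6549) and 6101, 1902, 3994, 5367 and 4251 in APOE3 replicates 1 to 5. The lowest APOE2 library lay just above APOE3 replicate 1, and the log2 fold change was 0.73 ± 0.18 (SE, adjusted p = 0.0525, limma). Without APOE3 replicate 1 the value was 0.88 (adjusted p = 0.0147, limma), without APOE3 replicate 2 it was 0.46, and with APOE3 replicates 2 and 3 both left out it was 0.37 (adjusted p = 0.203, limma). Rpl10a, the protein of the L1 stalk that guides used transfer RNA out of the ribosome, had 532 to 828 normalised counts in APOE2 and 509, 420, 446, 426 and 415 in APOE3. Its groups did not overlap either, and its log2 fold change was 0.52 ± 0.13 (SE, adjusted p = 0.0669, limma), or 0.50 (adjusted p = 0.185, limma) without APOE3 replicates 2 and 3.

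The members that form bridges to the small subunit had the highest median of the role groups, 0.56 over the 3 tested. That rank was lost with APOE3 replicates 2 and 3 both left out, where all 3 lay below the 0.50 of Rpl10a in the L1 stalk. Rpl30 had 12325 to 26902 normalised counts in APOE2 (median 19504) and 17664, 5336, 12478, 9679 and 16866 in APOE3 replicates 1 to 5. APOE3 replicate 2 was again the lowest library, and the groups overlapped, with a log2 fold change of 0.77 ± 0.22 (SE, adjusted p = 0.103, limma). Leaving out APOE3 replicate 1 gave 0.92 (adjusted p = 0.0297, limma), leaving out APOE3 replicate 2 gave 0.49, and leaving out APOE3 replicates 2 and 3 together gave 0.44 (adjusted p = 0.348, limma). Rpl41, whose product is a short helix of 25 residues and the smallest protein of the family, had a log2 fold change of 0.56 (adjusted p = 0.103, limma), and Rpl23 had 0.35 (adjusted p = 0.299, limma). Without APOE3 replicates 2 and 3 they had 0.30 and 0.06, and Rpl23 had 0.19 without APOE3 replicate 2 alone. Rpl24, the other bridge gene, had 8 reads over all 13 libraries, in 4 of the APOE2 libraries and in no APOE3 library, so no fold is given. Its exons overlap those of Gm28037 on the same strand, a gene absent from the deposited values. Whether that overlap lowered the count of Rpl24 was not tested.

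The 5S ribonucleoprotein, made of the 5S RNA with Rpl5 and Rpl11, joins the subunit as a unit, and when free it binds Mdm2, the ligase that keeps p53 low. Rpl5 had 1711 to 2664 normalised counts in APOE2 (median 2237) and 2138, 919, 1473, 1554 and 1711 in APOE3 replicates 1 to 5. Its log2 fold change was 0.54 ± 0.15 (SE, adjusted p = 0.0991, limma), it was called without APOE3 replicate 1 (0.67, adjusted p = 0.0224, limma), and with APOE3 replicates 2 and 3 both left out it was 0.29 (adjusted p = 0.390, limma). Rpl11 had 7369 to 9143 normalised counts in APOE2 (median 8227) and 8444, 8769, 7785, 8077 and 7630 in APOE3. The APOE3 libraries lay within the APOE2 range, and the log2 fold change was 0.03 ± 0.10 (SE, adjusted p = 0.923, limma), or 0.05 without APOE3 replicates 2 and 3. Whether the fold changes of Rpl5 and Rpl11 differ from each other was not tested.

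The P stalk recruits the elongation factors and their GTPase activity, and is built of Rplp0, Rplp1 and Rplp2 on a base formed with Rpl12. All 4 had values above 0, none with an unadjusted p under 0.05, and their median was 0.15. Rplp0, often used as a reference gene, had 6392 to 7997 normalised counts in APOE2 (median 7546) and 7450, 6926, 6118, 8823 and 7522 in APOE3. The APOE3 range enclosed the APOE2 range, and the log2 fold change was 0.02 ± 0.10 (SE, adjusted p = 0.948, limma); it was -0.04 without APOE3 replicate 3. Rplp1, which had the highest count of the members, had 34498 to 50029 in APOE2 (median 40056) and 36541, 47247, 34480, 36600 and 34010 in APOE3, with a log2 fold change of 0.10 ± 0.13 (SE, adjusted p = 0.766, limma). Unlike most members, Rplp1 was at its highest APOE3 value in replicate 2. Rplp2 had 8113 to 16458 in APOE2 (median 9874) and 8659, 6124, 6647, 9859 and 10834 in APOE3, with a log2 fold change of 0.30 ± 0.16 (SE, adjusted p = 0.393, limma). Rpl12 had 7654 to 11401 in APOE2 (median 8891) and 8380, 7179, 6026, 10013 and 9183 in APOE3, with a log2 fold change of 0.19 ± 0.12 (SE, adjusted p = 0.499, limma). For both genes the APOE3 libraries fell into the low replicates 2 and 3 and the remaining 3, which lay inside the APOE2 range. In the fit without APOE3 replicates 2 and 3, the log2 fold change was 0.05 for Rplp2, 0.0018 for Rpl12, 0.17 for Rplp1 and -0.09 for Rplp0, so no direction is given for the stalk. Single libraries also moved these values: Rplp2 was 0.19 without APOE3 replicate 2 and 0.20 without APOE2 replicate 1, and Rpl12 was 0.09 without APOE3 replicate 3. Rplp1 was 0.19 without APOE3 replicate 2, 0.06 without APOE2 replicate 1, and 0.07 without APOE2 replicate 5 or APOE3 replicate 5.

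Proteins at the peptidyl transferase centre and the transfer RNA sites had a median of 0.21. Rpl10, which is added late in maturation and reaches toward the catalytic centre, had a log2 fold change of 0.48 (adjusted p = 0.202, limma), and Rpl36a, near the exit site for transfer RNA, had 0.30 (adjusted p = 0.287, limma). Rpl3, whose loop reaches the catalytic centre, had 0.13 (adjusted p = 0.634, limma), and Rpl8 had -0.03. With APOE3 replicates 2 and 3 both left out, Rpl10 had 0.20, Rpl36a 0.23, Rpl3 -0.03 and Rpl8 0.03. APOE3 replicate 2 alone brought Rpl10 to 0.25 and Rpl3 to 0.05 when left out, and Rpl3 had 0.22 without APOE3 replicate 4. Along the exit tunnel and at its mouth, 8 of 9 members were above 0 with a median of 0.20, and Rpl35 was the 1 called. Rpl22, which also binds structured RNA outside the ribosome, had 0.40 ± 0.11 (SE, adjusted p = 0.0844, limma). Rpl4, whose loop lines the tunnel, had 0.20, Rpl17 had 0.24, Rpl31 had 0.23 and Rpl19 had 0.20, and Rpl39, a short protein inside the tunnel, had 0.06. Rpl26, which is also known to bind the p53 messenger RNA, had 0.05. None of these 6 passed the threshold, with adjusted p from 0.373 to 0.914 (limma). In the fit without APOE3 replicates 2 and 3, Rpl22 had 0.27, Rpl4 0.04, Rpl17 0.21, Rpl31 0.20, Rpl19 -0.01, Rpl39 -0.03 and Rpl26 0.14. Rpl19 had 0.08 without APOE3 replicate 2 and Rpl17 had 0.13 without APOE3 replicate 4, while the signs of Rpl39 (-0.03 without APOE3 replicate 2) and Rpl26 (-0.03 without APOE3 replicate 5) turned.

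Among the 21 genes of the outer shell and other positions, 18 were above 0, 13 had an unadjusted p under 0.05 in the higher direction, and Rpl35a and Rpl6 were called, with a median of 0.29. The next after Rpl7a were Rpl38, a small protein known for patterning defects in the mouse mutant Tail short, at 0.61 (adjusted p = 0.0669), Rpl37a at 0.59 (adjusted p = 0.105), Rpl15 at 0.49 (adjusted p = 0.256), Rpl34 at 0.40 (adjusted p = 0.108) and Rpl36 at 0.38 (adjusted p = 0.189, limma). Rpl13a, known from the interferon-dependent complex that holds back translation of inflammatory messages, had 0.07 (adjusted p = 0.840, limma). Rpl37, among the most counted members with a mean of 29680.4 in APOE2 and 23973 in APOE3, had 0.29 (adjusted p = 0.333, limma). With APOE3 replicates 2 and 3 both left out, the values were 0.34 for Rpl38, 0.34 for Rpl37a, 0.24 for Rpl15, 0.29 for Rpl34, 0.30 for Rpl36, -0.14 for Rpl13a and 0.22 for Rpl37. Without APOE3 replicate 2 alone, Rpl15 had 0.26 and Rpl13a had -0.02, and Rpl13a had 0.18 without APOE3 replicate 4.

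The lower end of the family consisted of Rpl13, Rpl14, Rpl7, Rpl8 and Rpl23a, none of them called. Rpl13 had 3509 to 5863 normalised counts in APOE2 (median 4888) and 4964, 8011, 5529, 4326 and 4293 in APOE3 replicates 1 to 5, a log2 fold change of -0.16 ± 0.14 (SE, adjusted p = 0.651, limma). Its highest library was APOE3 replicate 2, the library that was lowest for many others. Rpl14 had 2187 to 3454 in APOE2 (median 2890) and 2709 to 3485 in APOE3 (median 2845), with -0.07 ± 0.11 (SE, adjusted p = 0.835, limma). Rpl7 had 4643 to 5868 in APOE2 (median 5629) and 4705 to 7006 in APOE3 (median 5993), with -0.04 ± 0.11 (SE, adjusted p = 0.911, limma). Rpl8 had 11253 to 12895 in APOE2 (median 12276) and 10524 to 16307 in APOE3 (median 11573), with -0.03 ± 0.11 (SE, adjusted p = 0.934, limma). The groups overlapped for all 5 of these genes, and APOE3 replicate 2 held the highest value of all libraries for each of them. Rpl23a, a docking site at the tunnel mouth, had 11781 to 14129 in APOE2 (median 13572) and 12601 to 14597 in APOE3 (median 13802), with -0.02 ± 0.10 (SE, adjusted p = 0.958, limma). Without APOE3 replicate 2 the sign turned for Rpl7 (0.04), Rpl8 (0.07) and Rpl23a (0.01), and it turned for Rpl23a without APOE2 replicate 3 (0.01), so no direction is given for these genes. In the fit without APOE3 replicates 2 and 3, the values were 0.06 for Rpl13, -0.01 for Rpl14, -0.03 for Rpl7, 0.03 for Rpl8 and -0.02 for Rpl23a.

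A few libraries held the extreme values of much of the family. APOE3 replicate 2 was the lowest library for 22 of the 44 members and the highest for 6, namely Rpl7, Rpl8, Rpl13, Rpl14, Rpl23a and Rpl26. APOE3 replicate 3 was lowest for another 10. APOE2 replicate 1 was the highest library for 19 members and APOE2 replicate 2 for 9, while APOE2 replicate 3 was highest for Rpl5, Rpl15, Rpl30 and Rpl35a and lowest for Rpl11, Rpl13, Rpl14 and Rpl23a. The spread within groups was a little wider than over genes of high count. The median coefficient of variation of the members was 14.8% in APOE2 and 19.4% in APOE3. It was 11.7% and 17.5% over the tested genes with a mean of at least 1000, from which the members were not removed. Rpl6, Rpl10a, Rpl15 and Rpl29, with means below 1000, are in the member figures only.

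**Figure D4:**
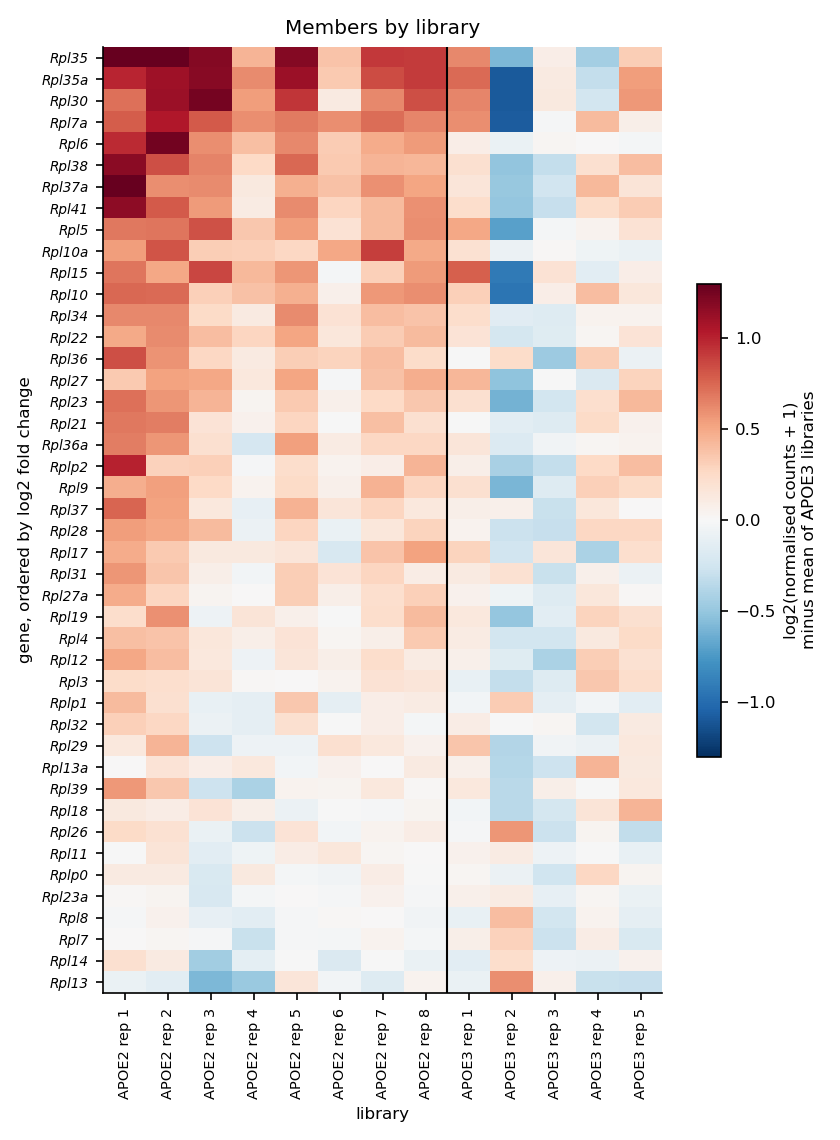
Log2(normalised counts + 1) of each tested member in each library minus the mean of that member over the 5 APOE3 libraries, with genes ordered by log2 fold change from top to bottom and libraries in columns; red is higher and blue lower, the colours end at 1.3 below and above 0, and larger values share the end colour. APOE3 replicate 2 is blue for many upper genes and red for Rpl13, Rpl7, Rpl8 and Rpl26 near the bottom.

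Averaged over all 45 members, the mean log2 value was 12.37, 12.31, 12.11, 11.91, 12.16, 11.96, 12.17 and 12.13 in APOE2 replicates 1 to 8. It was 12.01, 11.59, 11.71, 11.91 and 11.96 in APOE3 replicates 1 to 5. These means include the untested Rpl24, which had reads in 4 APOE2 libraries and in no APOE3 library, so they slightly favour APOE2. APOE2 replicates 4 and 6 lay below APOE3 replicate 1, so the groups overlapped, and only APOE3 replicates 2 and 3 lay below every APOE2 library. The members together took 3.66% to 5.03% of the normalised counts in APOE2 (median 4.23%) and 4.06%, 3.29%, 3.29%, 3.84% and 3.94% in APOE3. The libraries with the lowest mean also had the highest Gm42418 share, 3.74% and 3.03% in APOE3 replicates 2 and 3. APOE2 replicate 7, next in that share at 2.17%, had a mean of 12.17. With the log2 value of Gm42418 as a covariate, the median log2 fold change of the members was 0.15, 38 of 44 were above 0, 9 had an unadjusted p under 0.05 in the higher direction and 0 were called higher by limma. That fit called 1 of all 12403 tested genes higher and 1 lower.

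**Figure D5:**
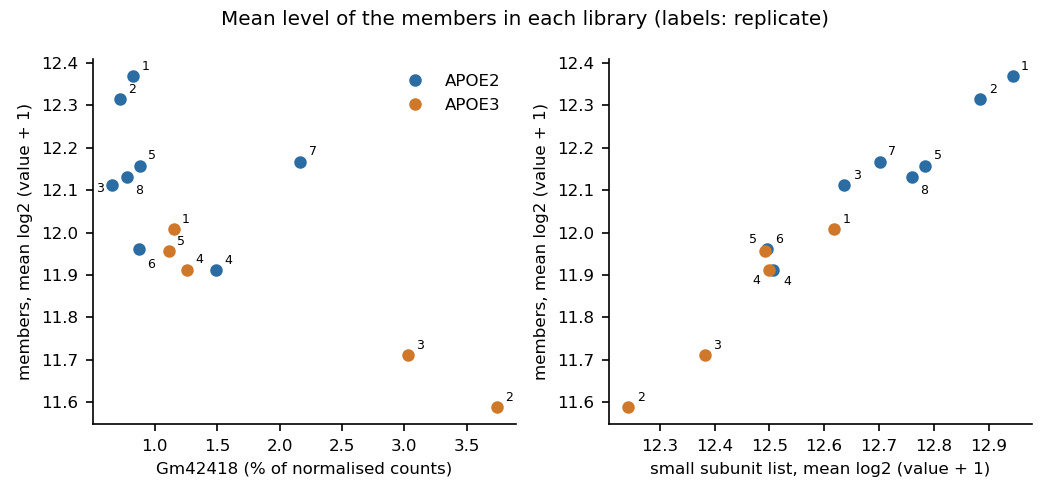
Mean log2 value of all 45 members, the untested Rpl24 included, in each library (vertical axis). The horizontal axes are the Gm42418 share of normalised counts (left) and the mean log2 value of the small subunit list (right). Replicate numbers are beside the points. APOE3 replicates 2 and 3 have the lowest means and the highest Gm42418 shares, and in the right panel both means rise together, from APOE3 replicate 2 to APOE2 replicate 1.

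Members differed in how far they followed the rest. For each tested member, the deviations from its group means over the 13 libraries were correlated with the mean deviation of the other 44 members. That mean included the untested Rpl24. The correlation is a description, since all genes share the same libraries and scaling. Pearson's r ran from -0.30 for Rpl13 to 0.95 for Rpl41. It was below 0.3, a bound chosen after the values were seen, for Rpl13, Rpl8, Rpl11, Rpl26, Rpl7, Rpl23a, Rpl14 and Rplp1. These 8 had log2 fold changes from -0.16 to 0.10 with a median of -0.02, 3 of them above 0, while the other 36 ran from 0.02 to 0.96 with a median of 0.30, all above 0. Within the 8 APOE2 libraries alone, r was below 0.3 for Rpl13, Rpl11, Rpl23a, Rplp0, Rpl13a and Rpl18. Rpl13, Rpl11 and Rpl23a were thus loosely tied by both counts, which share the 8 APOE2 libraries. Across the 44 genes, Spearman's rho between r and the log2 fold change was 0.58 with the 13 libraries and 0.35 with the APOE2 libraries alone. Genes are not independent replicates. In both, r and the log2 fold change share libraries, since the 8 APOE2 libraries also enter the fold change.

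Few features of the genes went with the size of the difference. Spearman's rho of the log2 fold change across the 44 genes was -0.33 with protein length (25 to 419 residues, median 158) and -0.21 with the number of exons (3 to 10). It was -0.0025 with mean level, -0.08 with transcript length, 0.0016 with the length of the 3′ untranslated region and 0.11 with the number of annotated pseudogenes that carry the gene's symbol. The kit reads the end of the transcript next to the poly(A) tail, so counts were not divided by length. Mean levels on that scale ran from 566 normalised counts for Rpl10a to 39555 for Rplp1, with a median of 5715. Small nucleolar RNAs, which guide modification of ribosomal RNA, lie inside 19 of the 44 genes, 38 in all, and the median log2 fold change was 0.24 for these 19 and 0.29 for the other 25. Rpl10, Rpl36a and Rpl39 are on the X chromosome and had 0.48, 0.30 and 0.06. Pseudogenes named after Rpl genes, 131 in the table with 13 tested, together had 0.157% to 0.289% of the members' normalised counts, and none of the 13 was called by limma, with 1 higher and 1 lower at an unadjusted p under 0.05.

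Other genes of the pathway were read from lists chosen with earlier results of these data known, so they are described without a test of the lists. Of 32 small subunit genes, 26 were above 0 with a median of 0.29, and Rps23 (0.84 ± 0.19, adjusted p = 0.0301), Rps27 (0.65 ± 0.14, adjusted p = 0.0309) and Rps21 (0.64 ± 0.15, adjusted p = 0.0456, limma) rose. The mean log2 value of all 45 members, Rpl24 included, minus that of the small subunit list averaged -0.57 ± 0.04 over the APOE2 libraries (SD, n = 8) and -0.61 ± 0.05 over the APOE3 libraries (SD, n = 5), with overlapping ranges of -0.63 to -0.53 and -0.67 to -0.54. Over the tested members alone, that balance was 0.03 higher in APOE2. Of the paralogs, Rpl22l1 had 0.30 (adjusted p = 0.347), Rpl36al -0.26 (adjusted p = 0.608) and Rpl7l1 0.03 (adjusted p = 0.949, limma), and Rpl3l, a muscle gene, had a mean of 2.78 in APOE2 and 8.65 in APOE3 and was not tested.

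Of 43 factors that assemble the large subunit, 25 were above 0 with a median of 0.04, and 1 was called. Ftsj3, a nucleolar methyltransferase of the assembly pathway, had 622 to 861 normalised counts in APOE2 and 881 to 1132 in APOE3, and fell by 0.49 on the log2 scale (SE 0.12, adjusted p = 0.0462, limma). Its groups did not overlap, but the call was lost whichever of the 13 libraries was left out. Of 16 genes of RNA polymerase I and its factors, 10 were above 0 with a median of 0.11, and Taf1d, a subunit of the selectivity factor, rose by 0.81 ± 0.16 (SE, adjusted p = 0.0191, limma). In a list of 22 genes around terminal oligopyrimidine messages and mTOR signalling, 12 were above 0 with a median of 0.01. None of the 22 was called by limma, with 2 higher and 0 lower at an unadjusted p under 0.05. The lowest p-values were those of Larp7 (0.36, adjusted p = 0.240) and Eif4ebp1, the translation repressor that mTOR inactivates (0.32, adjusted p = 0.296, limma). None of 7 genes around the 5S ribonucleoprotein and p53 was called by limma, with 2 higher and 3 lower at an unadjusted p under 0.05. The 3 lower were Cdkn1a (-0.47, adjusted p = 0.193), Nop53 (-0.29, adjusted p = 0.299) and Mdm2 (-0.25, adjusted p = 0.316, limma). Rrs1 and Rpf2, which load the 5S ribonucleoprotein onto the forming subunit, had 0.54 ± 0.14 (adjusted p = 0.0696) and 0.48 ± 0.15 (adjusted p = 0.134, limma). Over these lists of other genes together, the small subunit list included, 4 were called higher by limma with all libraries, 0 without APOE3 replicate 3 or 4, 1 without APOE2 replicate 1, 2, 5 or 7, 2 without APOE2 replicate 8 or APOE3 replicate 2, and 9 without APOE3 replicate 1.

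Tested markers of lung epithelium, endothelium, fibroblasts and leukocytes mostly had lower values in the APOE2 libraries, and few of them outside the epithelial list passed the threshold. Of 15 lung epithelium markers, 13 were tested, 0 were above 0 and 7 fell, and their summed level was 80.4 to 494 per 1000000 normalised counts in APOE2 and 428 to 2598 in APOE3, with Epcam at 0 in at least 7 of the 13 libraries. All 14 endothelial markers were tested, none was above 0 and 2 fell, with sums of 89.3 to 139 and 135 to 286. Of 21 leukocyte markers, 8 were tested, 1 was above 0 and 2 fell, with sums of 58.8 to 298 and 261 to 1521. Lyz2 (-2.21, adjusted p = 0.0241) and Cd74 (-2.02, adjusted p = 0.0301, limma) fell. Lyz2 had by far the highest means of the list, 1162 normalised counts in APOE2 and 5288 in APOE3, so it weighed most in these sums. H2-Ab1 had -2.07, Tyrobp -0.95, Cd68 -0.41, Fcer1g -0.18, S100a8 -0.04 and S100a9 0.50, none of them called by limma. Adgre1, Cd3e, Cd3d, Cd4, Cd8a, Nkg7, Cd79a and Ms4a1 were at 0 in at least 7 libraries. Of 13 fibroblast and smooth muscle markers, 8 were tested, none was above 0 and 1 fell, with sums of 18.9 to 61.7 and 41.9 to 257, and Tagln and Mfap4 were at 0 in at least 7 libraries. Of 5 erythroid markers, 3 were tested, all above 0, and none was called by limma or had an unadjusted p under 0.05, with overlapping sums of 4.80 to 22.0 and 2.84 to 26.8. With the mean of the lung epithelium markers as a covariate, the median log2 fold change of the members was 0.33, with 42 of 44 above 0, 12 at an unadjusted p under 0.05 in the higher direction and 0 called by limma. With the leukocyte mean it was 0.34, with 42 above 0, 19 at an unadjusted p under 0.05 and 0 called by limma. Over all 12403 tested genes, the epithelium fit called 0 in either direction, and the leukocyte fit called 8 higher and 0 lower. The 0 member calls in these fits are therefore not particular to the members.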

How the data were processed

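Expression was measured in 13 libraries made with the QuantSeq 3′ forward kit, per the labels' protocols. The values the authors deposited are normalised counts per gene, a non-negative signal. STAR 2.6.0, featureCounts, DESeq2 1.28.1 and the build mm10 are named, without roles, in the submitters' processing notes; the annotation and the use of strand in counting are not given in the sources used here. In each library all nonzero values were whole multiples of 1 step (tolerance 0.01 read), so reads were recovered from the deposited signal; they range from 7080308 to 13039989 per library and, without molecular identifiers, bound counting error alone. GENCODE M21 (GRCm38) paired 22649 of 22656 identifiers with symbols, coordinates and overlaps; promoter windows are from RefSeq (GRCm38.p6).

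Values were transformed as log2(value + pseudocount 1), which understates changes of low genes. APOE2 and APOE3, grouped by the labelled genotype, were compared over the 12403 genes with a mean of at least 10 using limma 3.58.1 (R 4.3.3; intensity trend; two-sided) and Benjamini-Hochberg adjustment over all of them, with a threshold of 0.05. Where the labels give replicate numbers, nothing says that a number is more than a name. p-values measure the spread between these libraries. The fit was tested on simulated counts. The members and lists were chosen with earlier results of these data known, so lists are described by counts and medians only. Full values are given for members past the threshold, the 5 with the largest and the 5 with the smallest log2 fold change, and the P stalk and 5S groups. From each other list, genes past the threshold are named, or otherwise those with the lowest p-values. Any other member may be named with a level or fold change. Rpl10l and Rpl39l, and the symbols Polr1f, Polr1g and Polr1h, were not matched and were not analysed here. A further list is not reported here. The alternatives tried were other pseudocounts, filters, scalings and limma settings, edgeR 4.0.16 and DESeq2 1.42.0 on the recovered reads, marker and Gm42418 covariates, correction for transcript length and GC content, thinned reads, the replicate number as a block, and libraries left out.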

Additional observations from a re-analysis of the deposited data

Results flagged for a closer look

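In 94 screens, of the values of each of the 44 tested members and of 3 summaries per library within each group, a library stood far from the rest of its group 6 times, on 5 different libraries, and chance flags about 1 in 20 groups, which here is 4.7. Rpl7a had 8262 normalised counts in APOE2 replicate 2, above 6113 to 7014 in the other APOE2 libraries. Rpl37a had 30484 in APOE2 replicate 1, above 12603 to 17598. Rplp2 had 16458 in APOE2 replicate 1, above 8113 to 11201. Rplp1 had 47247 in APOE3 replicate 2, above 34010 to 36600. Rpl23a had 11781 in APOE2 replicate 3, below 13381 to 14129. Rpl7 had 4643 in APOE2 replicate 4, below 5583 to 5868.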

How the results depend on the processing

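No member was called lower under any alternative run, and the median log2 fold change of the members stayed above 0 in all of them (0.13 with the trend on length and GC content removed, 0.34 with the leukocyte covariate, 0.19 to 0.31 with 1 library left out). The number of members called higher, 3, was 0 with no filter on low values, in limma without the trend, with the lung epithelium, leukocyte or Gm42418 covariate, and with APOE3 replicates 2 and 3 or APOE2 replicates 1 and 2 both left out (the last 2 settings chosen after seeing the data). It was 5 with array weights, 8 with DESeq2, 8 at a threshold of 0.1, and 0 to 9 with 1 library left out. Calls over all tested genes moved as well. Against 51 higher as reported, 5 were higher with no filter, 0 without the trend, and 0, 8 and 1 with those covariates. With the APOE3 and the APOE2 pair left out, 1 and 7 were higher. Array weights gave 61, DESeq2 152, the threshold of 0.1 gave 119, and 1 library left out gave 5 to 131. Members higher at an unadjusted p under 0.05, 22, were 14 in limma without the trend, 12 with the epithelium covariate, 9 with the Gm42418 covariate and 11 with APOE3 replicates 2 and 3 left out. Genes of the other lists called higher, 4, were 0 with no filter, without the trend, with the epithelium or Gm42418 covariate and with either pair of libraries left out, 1 with the leukocyte covariate and with the length and GC trend removed, 2 in replicates 1 to 5 alone, 10 with DESeq2, 7 at a threshold of 0.1, and 0 to 9 with 1 library left out. The 1 called lower was 0 with 1 library left out, whichever it was, and 0 with no filter, TMM scaling, robust variance, array weights, no trend, any of the 3 covariates, replicates 1 to 5 alone, the length and GC trend removed and either pair left out.

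No pairing by replicate number was seen: deviations of same-numbered libraries correlated at -0.06, 0.01, -0.02, 0.01 and -0.03 for replicates 1 to 5. Differently numbered libraries were not compared, so this check cannot exclude a weak pairing. With the replicate block, on those 10 libraries, 3 members were called higher with a median of 0.32, and the other lists had 2 called higher and 0 lower. Over all 12473 genes tested there, 29 were called higher and 33 lower.

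Signs near 0 turned. Rpl11 was -0.0103 with equal library totals and -0.0757 with the length and GC trend removed. Rplp0 was -0.0175 with equal totals, -0.0124 with the Gm42418 covariate, -0.0172 with the length and GC trend removed, and -0.0892 and -0.00873 without the APOE3 and the APOE2 pair. Rpl23a was 0.0025 with TMM, 0.0215 with array weights and 0.0374, 0.0748 and 0.0124 with the epithelium, leukocyte and Gm42418 covariates. Rpl8 was 0.0609 with array weights, 0.0237, 0.0644 and 0.0308 with those covariates and 0.0254 without the APOE3 pair. Rpl7 was 0.0349 with array weights and 0.0434 with the leukocyte covariate. Rpl14 was 0.0203 with array weights and 0.156, 0.167 and 0.0024 with the covariates. Rpl13 was 0.0483 with the leukocyte covariate, 0.0017 with that of Gm42418 and 0.0621 without the APOE3 pair. With 1 library left out the ranges were -0.0451 to 0.0092 for Rpl23a, -0.0878 to 0.0702 for Rpl8, -0.107 to 0.0364 for Rpl7 and -0.0414 to 0.0906 for Rplp0. The cause of these changes was not tested.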
